A study of Mus musculus with 12 samples.

Results

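Gene expression in the livers of control mice was compared 6 h after an injection of acetaminophen and without the drug, over the whole transcriptome. The comparison used 6 of the study's 12 whole-liver RNA libraries, 3 treated (6 h) and 3 untreated (0 h), chosen by their labels. Of 55401 genes in the deposited table, 17585 had enough counts to be tested. The control mice were Fbxl5F/F, carrying an Fbxl5 gene flanked by loxP sites on both alleles and no Cre. The other 6 libraries, used to estimate the spread and for 1 comparison of responses, came from FBXL5ΔDC mice (Cd11c-Cre/Fbxl5F/F), in which Cre under the Cd11c promoter deletes Fbxl5 mainly in dendritic cells. All were males aged 7 to 10 weeks kept free of specific pathogens. Treated mice were fasted for 16 h and injected intraperitoneally with acetaminophen, and were fed again afterwards. The labels name doses of 300 and 500 mg/kg without tying either to these mice, and they do not say whether untreated mice were fasted. If they were not, fasting and the drug cannot be told apart. Replicates are numbered, but nothing says that they came from separate litters or cages, so p-values measure only the spread between these samples.

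Acetaminophen is cleared by hepatocytes mostly as sugar and sulfate conjugates, and cytochrome P450 enzymes of the cells around the central vein turn the rest into a reactive quinone imine. Glutathione traps this product until it runs out, after which protein adducts form, mitochondria are damaged and stress kinases are activated. Hepatocytes then switch on genes for redox defence, protein folding, amino acid supply and repair, while many metabolic genes are turned down.

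Library totals ran from 67.2 to 72.5 M estimated counts. Alb, the hepatocyte albumin gene, was at 60030, 57846 and 50190 CPM (counts scaled to a common library total with TMM factors) in untreated and 47857, 55635 and 92161 CPM in treated livers. Fbxl5 (ENSMUSG00000039753.16, GRCm38 chromosome 5 from 43744615 to 43821638, minus strand), floxed but with no Cre in either group, was at 20.7, 21.96 and 17.6 CPM and 13.3, 19.2 and 14.99 CPM (log2 −0.34, SE 0.27, edgeR adjusted p = 0.499), so no change was detectable. Itgax, which encodes CD11c and marks dendritic cells, was at 0.106, 0.369 and 0 CPM and 0.400, 0.581 and 0.135 CPM, close to the floor of 12 counts per library (0.161 CPM), and no statement about these cells rests on it. The counting strand is not given in the sources used here, so counts of genes that share exons with a gene on the opposite strand, such as Fbxl5 (with Bst1), Jun, Ddit3, Glul, Slc1a2, Dusp5, Dusp8, Nrg1, Krt8, Acsl1, Hmgcs1 and Srebf1, may hold reads of both.

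After acetaminophen 1118 genes were higher (6.36% of those tested) and 739 lower (4.2%) by the edgeR quasi-likelihood test at a Benjamini-Hochberg adjusted p below 0.05. A further rule asked that no treated library overlap an untreated one, and 15.3% of tested genes had all treated libraries above and 13.4% all below. The treated livers were not alike. The first principal component of log2 CPM, the axis along which the 12 libraries differed most, held 39.8% of the variance. On it treated control replicates 1, 2 and 3 lay at −9.46, −8.18 and 86.8. Untreated control livers lay at −59.1, −64.4 and −57.5, and treated FBXL5ΔDC livers at 97.7, 107 and 104. Why replicate 3 lay near the latter was not tested. Among treated control livers, replicate 3 lay farthest from the untreated mean in 798 of the 1118 rises and in 411 of the 739 falls. Over all 17585 tested genes it did so in 9427, so the share for falls was near that of all tested genes. Replicate 3 lay more than 2-fold beyond both other treated control livers in 203 of the rises and 34 of the falls, against 1969 of all tested genes. The median shift over the genes that rose was 0.88, 0.81 and 1.38 log2 units in treated replicates 1, 2 and 3. Over the genes that fell it was −0.76, −0.74 and −0.95. Without treated replicate 3, 965 genes rose (5.23%) and 712 fell (3.86%), and 787 of the rises and 545 of the falls remained. Counts were lower when an untreated library was left out: 562, 449 and 489 genes rose without untreated replicate 1, 2 or 3, and 459, 314 and 367 fell. Each untreated library thus bore on the counts more than any treated one. Upper quartile scaling gave 911 rises and 938 falls, 50.7% of calls being falls in place of 39.8%. Below, where leaving out 1 of the 12 libraries ended the call of a described gene, that library is named, and calls of the change in control livers with no such remark held with any 1 library left out. Counts of 5 or fewer in a list changed by more than 1.5 times with at least 1 library left out in most cases.

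**Figure D1:**
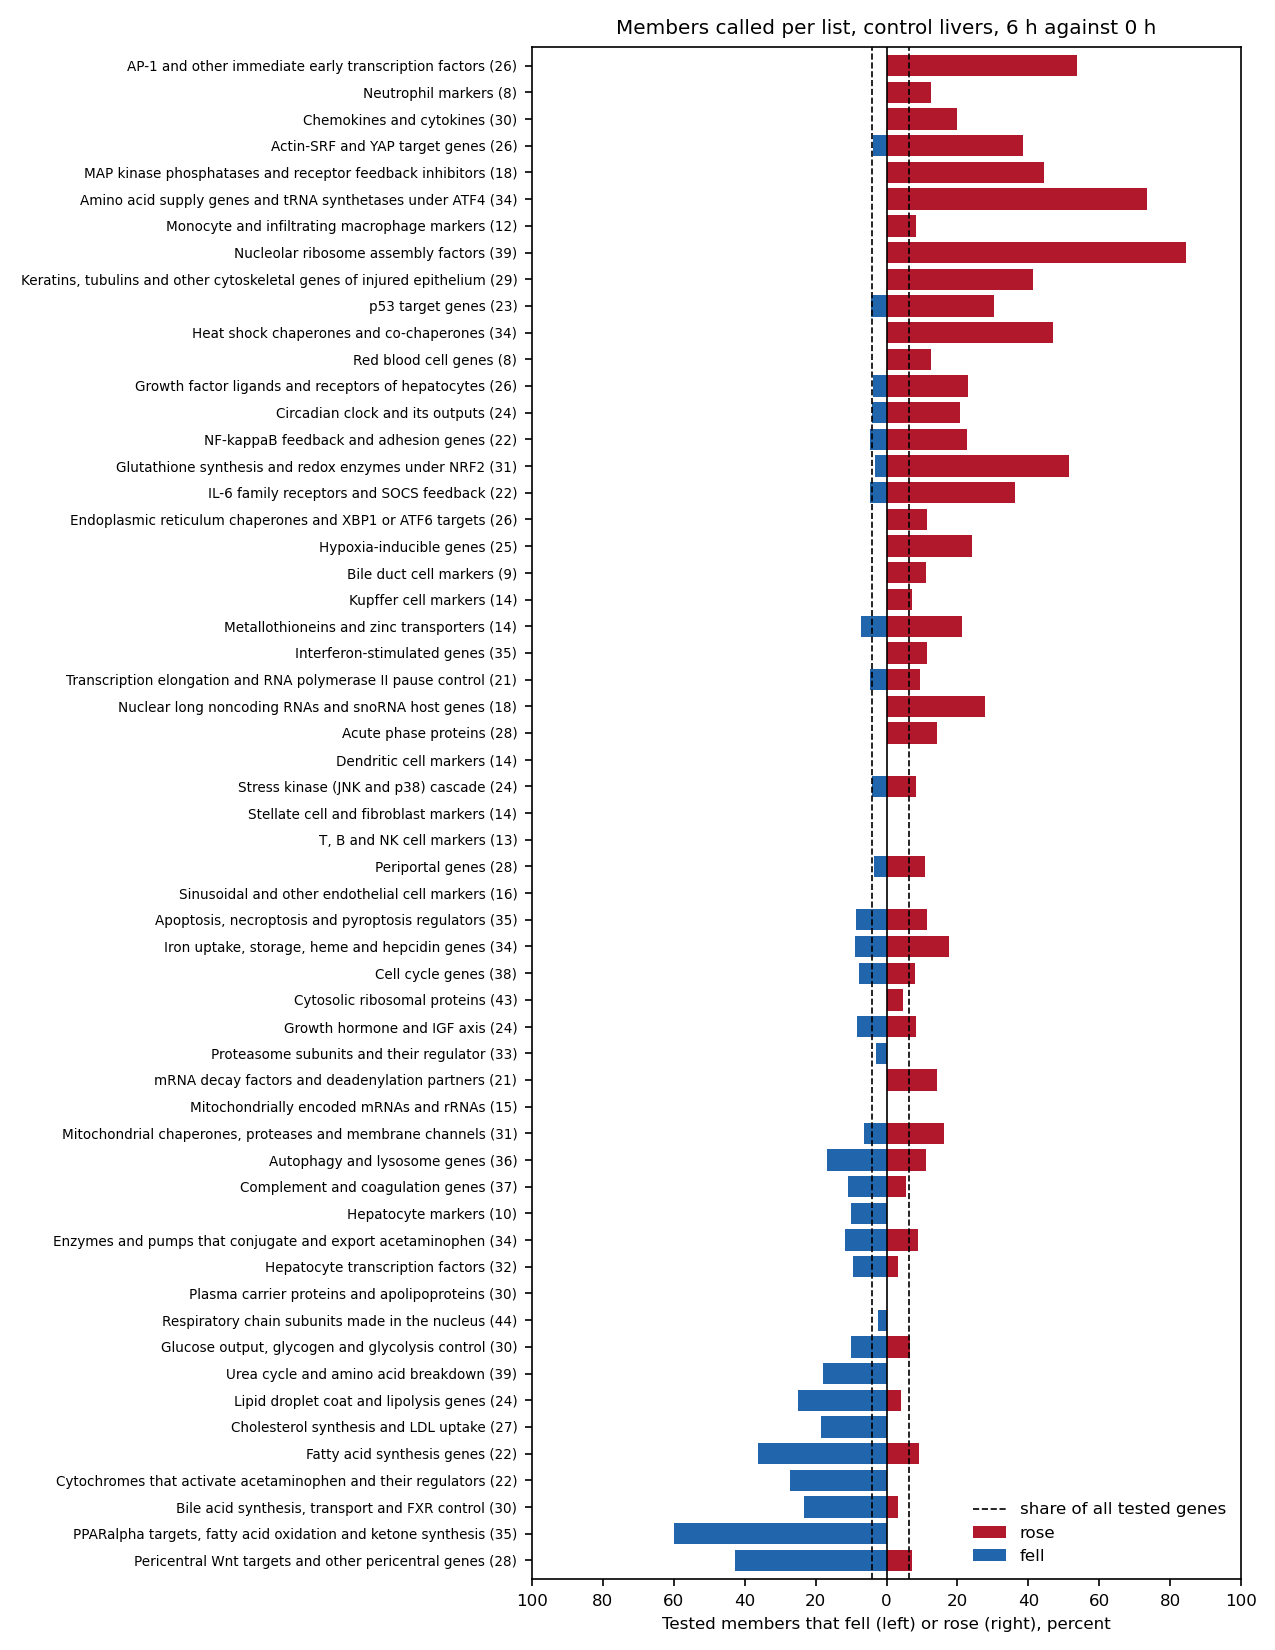
Bars give, for each of 57 gene lists (number of tested members in brackets), the percent of tested members that fell (blue, left) or rose (red, right) in treated against untreated control livers by edgeR, ordered by the list's median log2 change. Dashed lines mark the shares over all tested genes (6.36% higher, 4.2% lower), and the nucleolar list (33 of 39 higher) and the fatty acid oxidation list (21 of 35 lower) reach farthest from them.

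Among called genes with at least 5 CPM in the higher group and no overlap between groups, the largest fitted rise was that of Sprr1a, which encodes a cross-linked protein of stratified epithelia made by few other tissues. Its reads were at 0 in all untreated livers and at 18.04, 21.5 and 13.5 CPM in treated ones, a rise of at least 109.5-fold against the floor (edgeR adjusted p = 4.20e-05). The promoter is shown with Srxn1, a redox gene described further on, because both carry a pair of AP-1 motifs, the element bound by Jun and Fos family factors. Capitals mark TGACTCA on either strand (here it reads as its complement TGAGTCA), and the windows are the 250 bases before the RefSeq start on GRCm38.p6, 5′ to 3′ on the gene's strand (Sprr1a chr3:92485882-92486131, minus strand; Srxn1 chr2:152105274-152105523, plus strand).
Sprr1a: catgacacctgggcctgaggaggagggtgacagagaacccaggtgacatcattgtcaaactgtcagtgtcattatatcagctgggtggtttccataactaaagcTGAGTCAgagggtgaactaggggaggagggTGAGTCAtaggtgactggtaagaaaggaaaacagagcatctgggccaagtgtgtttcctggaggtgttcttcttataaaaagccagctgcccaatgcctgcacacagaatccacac
Srxn1: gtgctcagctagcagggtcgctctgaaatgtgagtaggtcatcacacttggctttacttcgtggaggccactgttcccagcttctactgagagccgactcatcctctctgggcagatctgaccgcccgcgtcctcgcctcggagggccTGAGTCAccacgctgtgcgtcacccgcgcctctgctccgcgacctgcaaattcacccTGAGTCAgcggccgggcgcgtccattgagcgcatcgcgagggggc
The first bases of the motifs lay 146 and 116 bases before the start of Sprr1a and 102 and 45 before that of Srxn1. Over promoters of 300 bases (250 before to 50 after the start), this motif was present in 6.51% of those of genes that rose at least 2-fold, 6.34% of those that fell at least 2-fold and 4.17% of all tested. The shares for rises and for falls lay close together, and both were above that of all tested promoters.

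Pwwp3b, a chromatin reader gene at 0 in every untreated liver, reached 5.02, 3.86 and 6.59 CPM (at least 31.95-fold, edgeR adjusted p = 0.00297). Tnfaip6, a secreted hyaluronan-binding protein made at sites of injury, was at 0, 0 and 0.242 CPM and then at 22.95, 11.2 and 5.97 CPM (at least 82.8-fold, edgeR adjusted p = 0.00995). All treated livers were above all untreated ones for these 3 genes. Lor, another gene of the cornified envelope, outside the naming rule and chosen after its values were seen, went from 2.599, 2.31 and 1.68 to 54.1, 50.95 and 25.2 CPM (log2 4.31, SE 0.37, edgeR adjusted p = 5.61e-05).

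Immediate early factors, which convert kinase signals into transcription within minutes to hours, rose in 14 of 26 tested members and none fell (median log2 2.21, against 0.03 over all tested genes). Jun (ENSMUSG00000052684.4, GRCm38 chromosome 4 from 95049034 to 95052222, minus strand), the DNA-binding partner of Fos in AP-1, was at 30.9, 25.2 and 18.3 CPM in untreated and 497, 304 and 371 CPM in treated livers (log2 3.98, SE 0.41, edgeR adjusted p = 0.000292). Atf3, which partners AP-1 and ATF4, was at 0.703, 0.914 and 1.93 CPM and 671, 584 and 416 CPM (log2 8.88, SE 0.92, edgeR adjusted p = 0.000616). Neither was highest in treated replicate 3, and untreated and treated livers were far apart for both. Fos followed another pattern, at 0.371, 0.955 and 1.14 CPM and then 8.71, 5.56 and 91.7 CPM, with replicate 3 more than 10 times above the others (log2 5.42, SE 1.17, edgeR adjusted p = 0.019, lost without untreated replicate 1, 2 or 3). Klf6, a zinc finger factor of injury responses, rose in all treated livers (4.16, 6.01 and 5.63 to 158, 70.2 and 213 CPM, log2 4.804, SE 0.39, edgeR adjusted p = 7.21e-05). Maff, a small partner of NRF2 and AP-1 proteins, did so too (2.64, 8.39 and 10.4 to 192, 99.6 and 453 CPM, log2 5.12, SE 0.83, edgeR adjusted p = 0.00558).

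Genes that switch these kinases off rose beside them. Of 18 MAP kinase phosphatases and receptor feedback inhibitors, 8 rose and none fell, but 5 rose without treated replicate 3 and 4 without any 1 untreated replicate. Dusp5, a nuclear phosphatase of ERK, was at 0.862, 0.641 and 1.03 CPM and 41.5, 24.7 and 170 CPM (log2 6.54, SE 0.80, edgeR adjusted p = 0.0014). Dusp8, which acts on JNK and p38, was at 2.64, 1.97 and 0.765 CPM and 45.3, 41.9 and 27.9 CPM (log2 4.42, SE 0.45, edgeR adjusted p = 0.000228). Dusp10, with the same targets, was at 2.47, 1.84 and 1.800 CPM and 17.8, 9.22 and 10.8 CPM (log2 2.63, SE 0.35, edgeR adjusted p = 0.000846). Dusp8 and Dusp10 were thus highest in treated replicate 1, and Dusp5 in replicate 3. Over the whole list the median shift was 1.11, 0.57 and 2.17 log2 units in treated replicates 1, 2 and 3. Dusp6, the cytoplasmic ERK phosphatase, was at 34.01, 61.9 and 60.3 CPM and 51.5, 61.6 and 272 CPM and was not called (edgeR adjusted p = 0.178). In the stress kinase list itself 2 of 24 genes rose and 1 fell (6 rose without treated replicate 2, and Tab2, the gene that fell, lost its call without most single libraries). The rises were Gadd45a and Map2k3, which activates p38, the latter at 40.7, 44.9 and 41.02 CPM and 99.2, 87.2 and 223 CPM (log2 1.69, SE 0.27, edgeR adjusted p = 0.003). The Dusp8 promoter (chr7:142095285-142095534, minus strand, GRCm38.p6) is shown because it holds a pair of full cyclic AMP response elements, which bind ATF and CREB factors. Capitals mark TGACGTCA.
Dusp8: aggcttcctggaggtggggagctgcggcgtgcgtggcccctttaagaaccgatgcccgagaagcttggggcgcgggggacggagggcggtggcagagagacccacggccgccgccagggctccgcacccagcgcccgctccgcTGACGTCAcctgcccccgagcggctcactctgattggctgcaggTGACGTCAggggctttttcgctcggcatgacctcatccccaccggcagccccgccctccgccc
They begin 107 and 63 bases before the start. This motif was found in 4.05% of promoters of genes that rose at least 2-fold (23 of 568), 1.87% of those that fell at least 2-fold (5 of 268) and 2.77% of all tested.

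Genes of amino acid supply rose in most cases. ATF4 is the factor made when tRNA charging fails or the endoplasmic reticulum is stressed, and it drives genes that import, make and load amino acids. Of 34 tested genes of this list 25 rose and none fell (median log2 1.05), 25 also without treated replicate 3 (median 0.95), and 19 to 25 with any 1 library left out. Chac1, which splits glutathione, was at 0.968, 1.02 and 0.645 CPM in untreated and 25.03, 14.8 and 29.8 CPM in treated livers (log2 4.72, SE 0.49, edgeR adjusted p = 0.000221). Slc7a11, the cystine importer that feeds glutathione synthesis, was at 0, 0 and 0.0537 CPM and 5.82, 12.9 and 2.41 CPM (at least 43.7-fold, edgeR adjusted p = 0.00107). No treated liver overlapped an untreated one. Their promoters are printed because they carry the composite site of ATF4 and C/EBP factors (Chac1 chr2:119350992-119351241, plus strand; Slc7a11 chr3:50443614-50443863, minus strand; GRCm38.p6). Capitals mark TGATGCAA on either strand.
Chac1: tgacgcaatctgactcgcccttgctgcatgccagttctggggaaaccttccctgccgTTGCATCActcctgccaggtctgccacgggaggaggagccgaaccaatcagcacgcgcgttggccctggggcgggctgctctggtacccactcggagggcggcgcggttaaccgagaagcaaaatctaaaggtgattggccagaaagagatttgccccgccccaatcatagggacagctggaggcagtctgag
Slc7a11: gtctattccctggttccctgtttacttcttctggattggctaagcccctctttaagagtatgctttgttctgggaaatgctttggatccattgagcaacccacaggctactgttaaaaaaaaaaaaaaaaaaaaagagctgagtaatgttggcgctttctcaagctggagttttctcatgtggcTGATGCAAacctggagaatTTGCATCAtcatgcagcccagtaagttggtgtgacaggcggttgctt
The site lies 193 bases before the start in Chac1 and 66 and 47 bases before it in Slc7a11, there in opposite orientations. It occurred in 1.59% of promoters of genes that rose at least 2-fold (9 of 568), 1.49% of those that fell at least 2-fold (4 of 268) and 0.663% of all tested.

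The serine pathway supplies glycine for glutathione and folate units. Psat1, its aminotransferase, was at 0.451, 0.218 and 0.806 CPM and 8.49, 8.26 and 50.1 CPM (log2 5.495, SE 0.79, edgeR adjusted p = 0.00248), about 6 times higher in treated replicate 3 than in the others. Psph, the last step, was at 2.72, 4.01 and 2.87 CPM and 6.53, 7.81 and 10.1 CPM (log2 1.35, SE 0.24, edgeR adjusted p = 0.00472). Phgdh, the first step, had no counts in untreated livers and stood at 0.464, 0.828 and 1.04 CPM in treated ones (at least 4.82-fold, edgeR adjusted p = 0.0263, lost without untreated replicate 1, 2 or 3). Asns, asparagine synthetase, was at 0.159, 0.805 and 1.92 CPM and 5.82, 14.7 and 8.14 CPM (log2 3.31, SE 0.71, edgeR adjusted p = 0.014, lost without untreated replicate 2). Mthfd2, the mitochondrial folate enzyme, was at 0.623, 0.860 and 0.242 CPM and 2.46, 4.55 and 10.1 CPM (log2 3.31, SE 0.56, edgeR adjusted p = 0.00364).

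Of 12 cytosolic aminoacyl-tRNA synthetases in the list, 11 rose, with log2 changes of 0.41 to 1.14 (median 0.86). These enzymes join each amino acid to its tRNA. Aars, for alanine, was at 182, 185 and 174 CPM and 400.1, 330.0 and 270.4 CPM (log2 0.89, SE 0.14, edgeR adjusted p = 0.00205). Sars, for serine, was at 46.2, 47.5 and 37.01 CPM and 88.2, 85.6 and 115 CPM (log2 1.14, SE 0.15, edgeR adjusted p = 0.000679). Tars, for threonine, did not pass the test (99.3, 84.6 and 75.7 and 106, 107 and 147 CPM, edgeR adjusted p = 0.0664). For Aars and Sars the untreated and treated livers did not overlap. Slc1a4, a neutral amino acid carrier, had a different profile, at 1.03, 1.57 and 1.62 CPM and 31.5, 30.5 and 2.65 CPM, with treated replicate 3 close to the untreated livers (log2 3.94, SE 0.82, edgeR adjusted p = 0.0135, lost without untreated replicate 1, 2 or 3). Ddit3, which encodes CHOP, was at 4.18, 9.09 and 6.07 CPM and 102, 111 and 55.1 CPM (log2 3.79, SE 0.37, edgeR adjusted p = 0.000179), with replicate 3 the lowest of the treated livers.

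The list with the largest share of rises was that of nucleolar ribosome assembly. Its products cleave, modify and fold ribosomal RNA and fit it with ribosomal proteins in the nucleolus. Of 39 tested members 33 rose and none fell (median log2 1.02), and in 37 of the 39 all treated livers lay above all untreated ones. The 6 not called were Polr1c, Rrp1, Npm1, Nop16, Ddx10 and Polr1a, at log2 changes of 0.18 to 0.62. Without treated replicate 3, 30 rose (median 0.76), and without untreated replicate 1, 2 or 3, 25, 25 and 23 rose. A fit to the control libraries alone called 13 of them. Myc, the factor that drives growth genes and is counted in this list, was at 2.16, 3.38 and 5.28 CPM and 52.6, 32.5 and 95.8 CPM (log2 4.06, SE 0.46, edgeR adjusted p = 0.000552).

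Members of 1 particle differed in the size of their change. Among core proteins of the box C/D particles, which place methyl groups on ribosomal RNA, Nop56 was at 15.6, 12.5 and 17.4 CPM and 47.96, 38.5 and 85.9 CPM (log2 1.92, SE 0.24, edgeR adjusted p = 0.000648). Nop58 was at 14.5, 13.2 and 18.4 CPM and 42.4, 43.8 and 79.8 CPM (log2 1.85, SE 0.26, edgeR adjusted p = 0.00115), whereas Fbl, the methyltransferase of the same particle, went from 23.5, 22.4 and 23.3 to 29.7, 30.96 and 42.9 CPM (log2 0.58, SE 0.14, edgeR adjusted p = 0.0201, lost without untreated replicate 1, 2 or 3). Gar1, of the box H/ACA particles that make pseudouridine, was at 2.39, 3.29 and 4.27 CPM and 7.73, 10.8 and 18.4 CPM (log2 1.89, SE 0.30, edgeR adjusted p = 0.00267). Dkc1, their enzyme, was at 12.9, 11.4 and 11.99 CPM and 22.3, 20.2 and 38.5 CPM (log2 1.16, SE 0.21, edgeR adjusted p = 0.00566).

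Other processing factors rose as well. Rrp12, an export and processing factor, was at 8.28, 7.89 and 6.77 CPM and 24.8, 25.6 and 37.4 CPM (log2 1.94, SE 0.18, edgeR adjusted p = 0.000128). Heatr1, which couples transcription to processing, was at 15.01, 17.2 and 15.2 CPM and 36.2, 38.3 and 85.4 CPM (log2 1.75, SE 0.28, edgeR adjusted p = 0.00254). Tsr1, which guards the late small subunit, was at 16.8, 17.3 and 21.2 CPM and 47.3, 46.97 and 101 CPM (log2 1.82, SE 0.26, edgeR adjusted p = 0.00147). In each of these the 2 lower treated livers were still more than 2-fold above the highest untreated one. Smaller changes were seen for the abundant nucleolar proteins, with Ncl, nucleolin, at 132, 123 and 126 CPM and 167, 174 and 224 CPM (log2 0.57, SE 0.12, edgeR adjusted p = 0.0111, lost without untreated replicate 2) and Npm1, nucleophosmin, at 79.3, 80.6 and 81.7 CPM and 85.4, 92.7 and 103 CPM (edgeR adjusted p = 0.352).

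**Figure D2:**
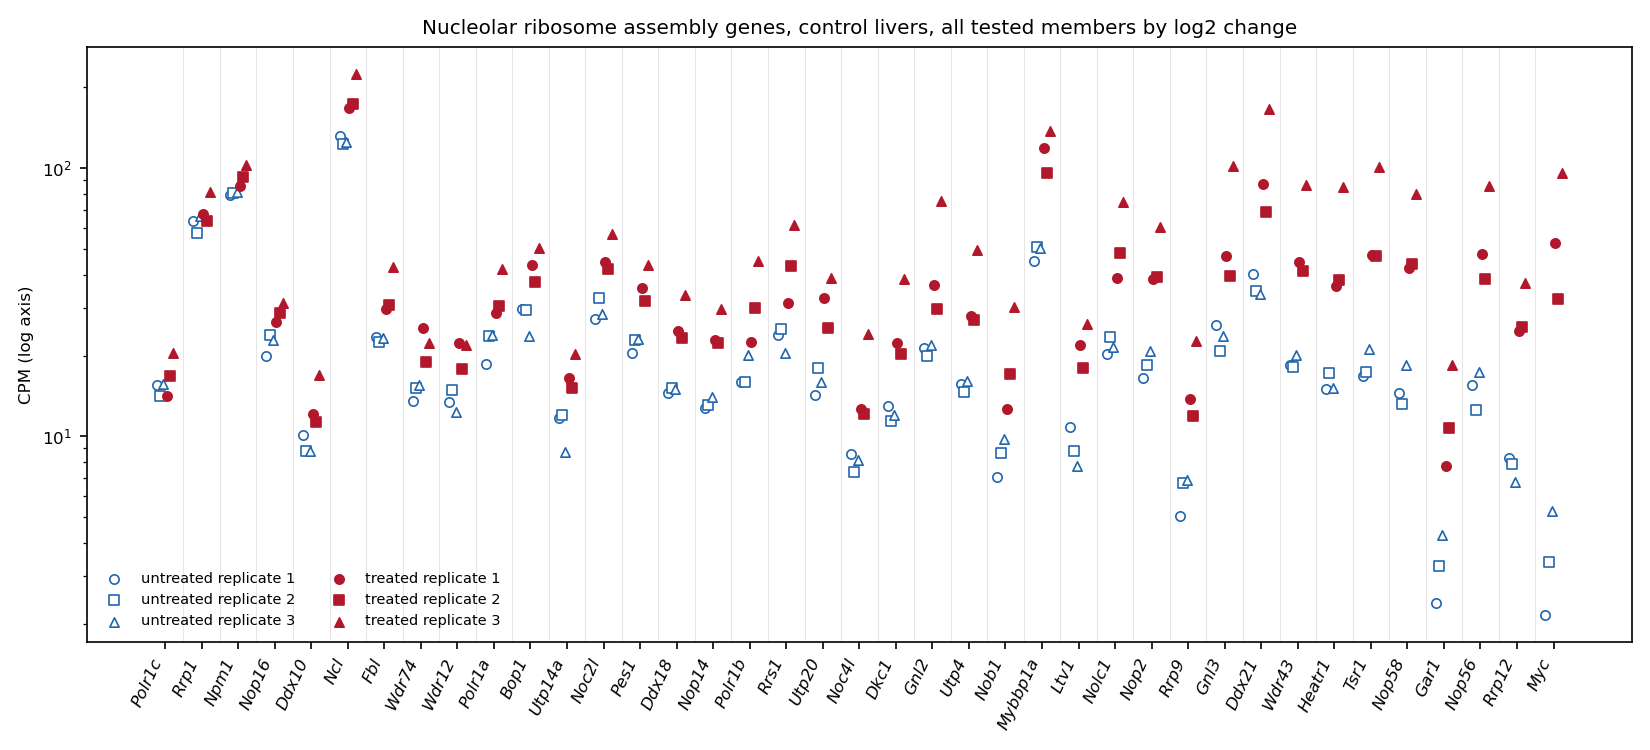
Each column is 1 of the 39 tested nucleolar genes, ordered by log2 change, and each point is the CPM (log axis) of 1 control liver, open blue for untreated and filled red for treated, with the symbol giving the replicate. All treated points lie above all untreated ones in 37 columns, and treated replicate 3 (triangles) is the highest of the treated points in 37.

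Ribosomal proteins themselves, the products these factors assemble, did not follow. Of 43 tested genes 2 rose and none fell (median log2 0.14), 10 had all treated livers above all untreated ones, and without treated replicate 3 none rose. Rpl3, of the large subunit, was at 126, 124 and 186 CPM and 231, 199 and 206 CPM (log2 0.55, SE 0.16, edgeR adjusted p = 0.0494, lost without untreated replicate 1 or 2 or treated replicate 1, 2 or 3 or FBXL5ΔDC untreated 1, 2 or 3 or treated 1 or 2). Rps6, of the small subunit, was at 234, 252 and 253 CPM and 267, 265 and 298 CPM (edgeR adjusted p = 0.452). Of 18 nuclear long noncoding RNAs and host genes of small nucleolar RNAs 5 rose, among them Snhg1 at 6.34, 4.995 and 5.305 CPM and 10.1, 10.9 and 26.2 CPM (log2 1.504, SE 0.32, edgeR adjusted p = 0.0119, lost without untreated replicate 2 or 3).

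The E-box bound by MYC, CACGTG, was in 8 of the 35 promoters found for 32 of the nucleolar genes (22.9%), against 13.4% of promoters of all genes that rose at least 2-fold, 8.96% of those that fell at least 2-fold and 9.40% of all tested. In 7 of the 8 it lay after the start. Nop2, an RNA methyltransferase at 16.5, 18.4 and 20.8 CPM and 38.7, 39.4 and 60.6 CPM (log2 1.32, SE 0.20, edgeR adjusted p = 0.00174), has it 60 bases before the start and is shown for that reason (chr6:125131633-125131882, plus strand, GRCm38.p6), with the E-box in capitals.
Nop2: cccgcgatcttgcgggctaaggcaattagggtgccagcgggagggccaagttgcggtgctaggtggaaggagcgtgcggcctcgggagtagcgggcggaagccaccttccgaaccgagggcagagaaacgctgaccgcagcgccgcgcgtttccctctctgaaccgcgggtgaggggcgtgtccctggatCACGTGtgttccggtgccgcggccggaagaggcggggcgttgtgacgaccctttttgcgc
A match in the letters is a description of the sequence and says nothing of whether the factor was bound there.

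Redox genes rose in 16 of 31 tested members and 1 fell (median log2 0.68), and 12 to 16 rose with any 1 library left out. Srxn1, which repairs peroxiredoxins and whose promoter is shown above, was at 62.03, 60.5 and 63.7 CPM and 1173, 855 and 2112 CPM (log2 4.47, SE 0.28, edgeR adjusted p = 1.91e-05), with the untreated livers close together. Gclc, which starts glutathione synthesis, was at 443, 409 and 290.3 CPM and 1892, 1498 and 3699 CPM (log2 2.63, SE 0.29, edgeR adjusted p = 0.000292). Pgd, which makes NADPH in the pentose phosphate pathway, was at 18.1, 17.6 and 15.1 CPM and 103, 70.5 and 127 CPM (log2 2.57, SE 0.20, edgeR adjusted p = 4.20e-05). Treated replicate 3 was the highest for all 3 of these. Nqo1, a quinone reductase often used as the marker of NRF2 activity, moved less, at 8.89, 5.801 and 5.17 CPM and 22.3, 15.2 and 13.2 CPM (log2 1.35, SE 0.26, edgeR adjusted p = 0.00748). Cat, the peroxisomal catalase, was the member that fell, at 2622, 2756 and 2647 CPM and 2077, 1988 and 1803 CPM (log2 −0.45, SE 0.10, edgeR adjusted p = 0.0172, lost without untreated replicate 2 or 3). The core of the antioxidant response element, TGACNNNGC, was in 18.0% of promoters of genes that rose at least 2-fold, 11.6% of those that fell at least 2-fold and 14.1% of all tested. Hmox1, which opens the heme ring, was at 15.8, 13.1 and 11.5 CPM and 350.1, 229 and 1158 CPM (log2 5.43, SE 0.63, edgeR adjusted p = 0.000872). The metallothioneins, small metal-binding proteins, were uneven before treatment: Mt1 was at 23.9, 52.5 and 115 CPM and 369, 390.1 and 2292 CPM (log2 3.998, SE 0.83, edgeR adjusted p = 0.0163, lost without untreated replicate 1 or 2), and the 2 lower treated livers were close to each other.

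Among heat shock chaperones and their partners, treated replicate 3 moved least. The list is mostly cytosolic but holds the mitochondrial chaperones Hspd1 and Hspe1. Of its 34 tested genes 16 rose and none fell (median log2 0.80), and 23 rose without treated replicate 3 (median 1.002). All treated livers lay above all untreated ones in 14 of the 34 genes and below all of them in 1. The median shift of the list was 1.18, 0.92 and 0.22 log2 units in treated replicates 1, 2 and 3, so that the liver with the largest median shift over all genes that rose had the smallest here. The count also hung on the untreated livers, with 6, 7 and 7 rises without untreated replicate 1, 2 or 3, and on the other treated ones, with 9 and 10 without treated replicate 1 or 2. Summed over the list, levels were 5266, 8138 and 8416 CPM in untreated and 24808, 17877 and 11999 CPM in treated livers, with untreated replicate 1 the lowest.

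Hspa1a, the stress-induced HSP70, was at 7.29, 42.4 and 47.8 CPM and 1463, 767 and 168 CPM (log2 4.62, SE 1.20, edgeR adjusted p = 0.0412, lost without untreated replicate 1, 2 or 3 or treated replicate 1 or 2 or FBXL5ΔDC untreated 2 or 3 or treated 1 or 2), although its near-identical neighbour Hspa1b makes the split of counts uncertain. Hsp90aa1, the inducible HSP90, was at 224, 359 and 420.4 CPM and 2302, 1476 and 877 CPM (log2 2.21, SE 0.34, edgeR adjusted p = 0.00267). Hsph1, a nucleotide exchange factor for HSP70, was at 50.3, 138 and 121 CPM and 779.8, 568 and 128 CPM, with treated replicate 3 inside the untreated range (log2 2.26, SE 0.61, edgeR adjusted p = 0.0424, lost without untreated replicate 1, 2 or 3 or treated replicate 1 or 2 or any 1 FBXL5ΔDC library). Treated replicate 3 was also inside the untreated range for Hspd1, the mitochondrial HSP60, at 309, 398 and 437 CPM and 1345, 1056 and 432 CPM (log2 1.31, SE 0.30, edgeR adjusted p = 0.0189, lost without untreated replicate 1, 2 or 3), which shares exon sequence with its partner Hspe1 on the opposite strand. Dnaja4, an HSP40, was at 3.47, 4.74 and 6.69 CPM and 106, 60.3 and 3.51 CPM (log2 3.51, SE 0.89, edgeR adjusted p = 0.0359, lost without untreated replicate 1, 2 or 3 or treated replicate 1 or 2 or any 1 FBXL5ΔDC library). Hspb8, a small heat shock protein of chaperone-assisted autophagy, did not share the pattern and was high in all 3 treated livers, at 112, 173 and 187 CPM and 573, 502 and 679 CPM (log2 1.89, SE 0.22, edgeR adjusted p = 0.000363). Hsf1, the factor that drives heat shock genes, was at 12.5, 12.4 and 13 CPM and 11.1, 16.1 and 18.2 CPM (edgeR adjusted p = 0.501). The core of the heat shock element, GAANNTTC, was in 6.69% of promoters of genes that rose at least 2-fold, 7.46% of those that fell at least 2-fold and 5.81% of all tested.

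**Figure D3:**
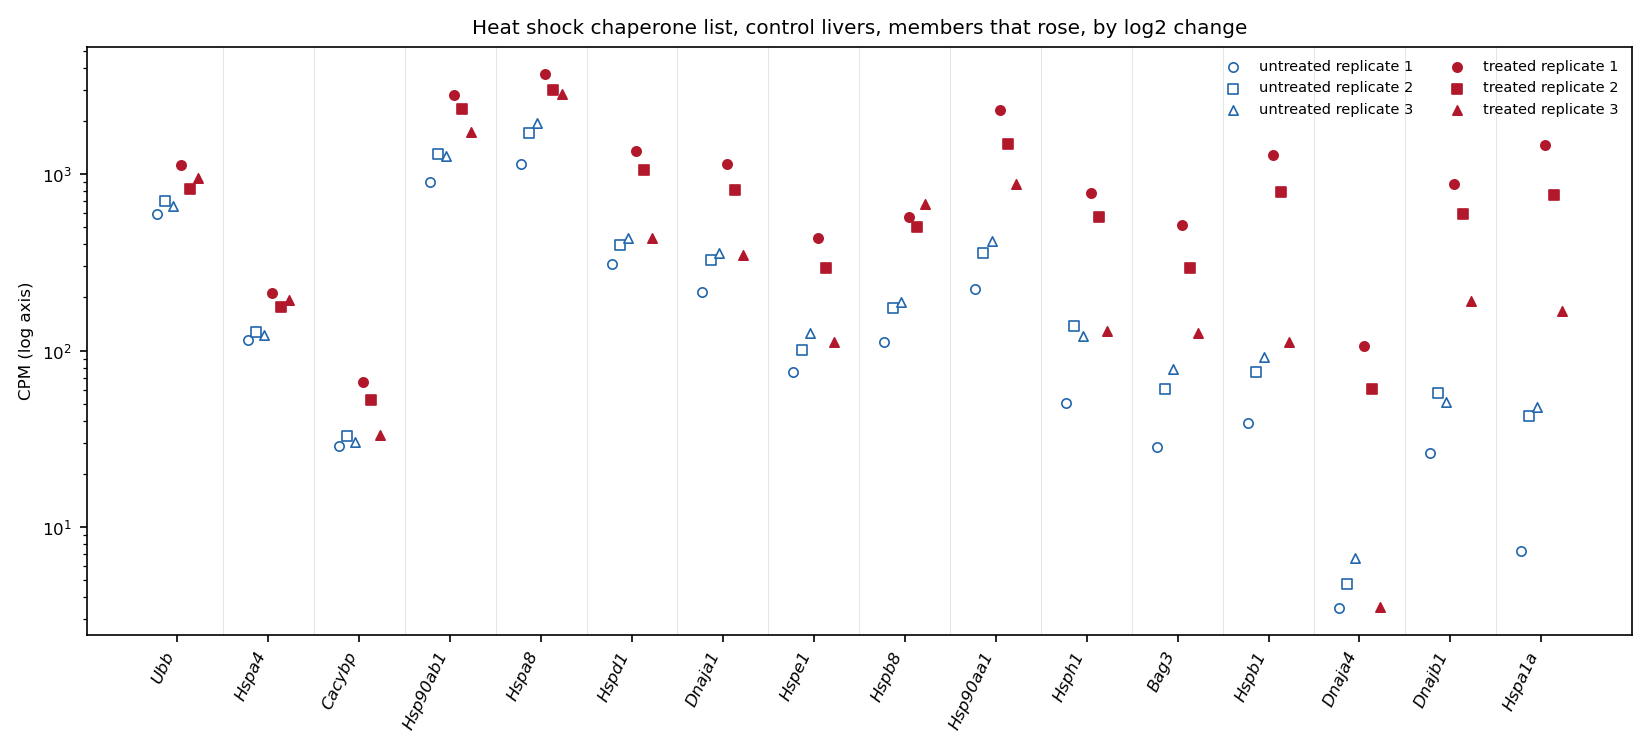
Each column is 1 of the 16 genes of the heat shock chaperone list that rose, ordered by log2 change, and each point is the CPM (log axis) of 1 control liver, open blue for untreated and filled red for treated, with the symbol giving the replicate. Treated replicate 3 (filled triangles) lies near the untreated livers for Hsph1, Hspd1 and Dnaja4. It lies above all of them for other genes, among them Hspa1a, Hsp90aa1, Dnajb1, Ubb, Hspa8 and Hspb8.

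Of 26 tested chaperones of the endoplasmic reticulum, 3 rose and none fell (median log2 0.51), but 12 rose without treated replicate 3 (median 0.67) and 5 without treated replicate 2, and the median shift was 0.48, 0.66 and −0.10 in treated replicates 1, 2 and 3, again lowest in replicate 3. Hspa5, the reticulum's HSP70, was at 406, 742 and 613 CPM and 1834, 2057 and 1527 CPM (log2 1.62, SE 0.23, edgeR adjusted p = 0.00141). Sdf2l1, a luminal chaperone partner, was at 9.04, 25.2 and 17.3 CPM and 56.2, 49.6 and 7.12 CPM and was not called (edgeR adjusted p = 0.282) except without treated replicate 3 (log2 1.62, edgeR adjusted p = 0.00898). Xbp1, the factor whose mRNA is spliced under reticulum stress, went the other way, with replicate 3 highest at 121, 145 and 141 CPM and 231, 209.9 and 406 CPM (log2 1.06, SE 0.23, edgeR adjusted p = 0.0134, lost without untreated replicate 1). Proteasome subunits, the next tier of protein quality control, were listed with their regulator. Among these 33 genes none rose and 1 fell (median log2 0.12), while 6 and 3 rose without treated replicate 2 or 3. The gene that fell was the regulator Nfe2l1, the factor that drives the subunits, at 132, 134 and 141 CPM and 71.9, 88.3 and 61.95 CPM (log2 −0.87, SE 0.14, edgeR adjusted p = 0.00247).

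**Figure D4:**
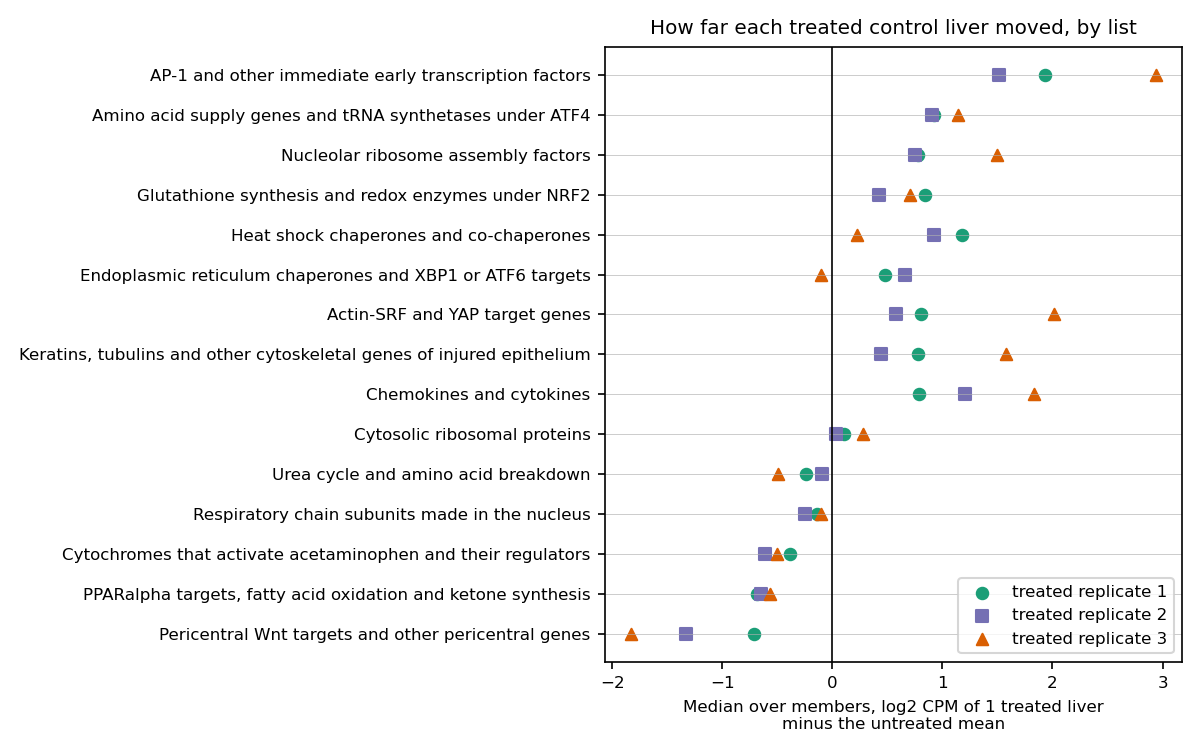
For 15 lists, each point gives the median over tested members of the log2 CPM of 1 treated control liver minus the untreated mean. Replicate 3 (triangles) is the highest for immediate early, nucleolar and SRF and YAP genes (for nucleolar genes 0.78, 0.75 and 1.50 in replicates 1, 2 and 3) and the lowest for both chaperone lists (0.22 and −0.10).

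Tubulins, the subunits of microtubules, rose together. All 9 tested tubulin genes rose, by 0.52 to 2.85 log2 units (median 1.55), while of the other members of the cytoskeleton list only Krt8, Krt18 and Sox9 were called (Krt18 log2 2.23, SE 0.62, edgeR adjusted p = 0.0475, lost without untreated replicate 1, 2 or 3 or any 1 FBXL5ΔDC library; Sox9 log2 2.44, SE 0.58, edgeR adjusted p = 0.0252, lost without untreated replicate 1, 2 or 3 or treated replicate 3). Tuba1c was at 60.5, 62.2 and 53.4 CPM and 180.3, 139 and 231 CPM (log2 1.64, SE 0.18, edgeR adjusted p = 0.000228) and Tuba1a at 7.93, 9.21 and 8.13 CPM and 24.3, 20.1 and 29.5 CPM (log2 1.55, SE 0.17, edgeR adjusted p = 0.000228), and no treated liver overlapped an untreated one. Tubb6, a beta tubulin, was at 7.31, 7.97 and 9.33 CPM and 27.1, 22.8 and 127 CPM (log2 2.85, SE 0.56, edgeR adjusted p = 0.0115, lost without untreated replicate 1 or 2). Krt8, the hepatocyte keratin, was far higher in replicate 3 than in the other treated livers, at 149, 182 and 216 CPM and 519, 377 and 4056 CPM. Its log2 change was 3.18 with all livers (edgeR adjusted p = 0.0316, lost without untreated replicate 1, 2 or 3 or FBXL5ΔDC untreated 1, 2 or 3 or treated 1) and 1.298 without treated replicate 3 (edgeR adjusted p = 0.000557). In the whole list of 29 genes 12 rose and none fell, and 7, 6 and 6 rose without untreated replicate 1, 2 or 3.

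Targets of SRF and YAP, factors that answer actin tension and cell contact, rose in 10 of 26 members and 1 fell (5, 6 and 5 rises without untreated replicate 1, 2 or 3). The gene that fell was Nt5e, an ectoenzyme, at 6.49, 11.1 and 11.7 CPM and 2.46, 5.11 and 2.18 CPM (log2 −1.59, SE 0.39, edgeR adjusted p = 0.0234, lost without untreated replicate 2 or 3 or treated replicate 1 or 3). Ccn1, a matrix signal protein, was at 9.96, 8.48 and 9.96 CPM and 77.3, 39.3 and 104 CPM (log2 2.96, SE 0.41, edgeR adjusted p = 0.0018). Tpm1, a tropomyosin, was at 16.4, 15.1 and 17.3 CPM and 32.5, 25.6 and 46.8 CPM (log2 1.11, SE 0.18, edgeR adjusted p = 0.00307). Ccn2 was at 4.63, 7.25 and 8.58 CPM and 5.72, 7.06 and 36.9 CPM and Ankrd1 at 0, 0.109 and 0 CPM and 0.103, 0.235 and 0.316 CPM, and neither was called (edgeR adjusted p = 0.228 and 0.314). The CArG box bound by SRF was in 1.94% of promoters of genes that rose at least 2-fold (11 of 568), 0.373% of those that fell at least 2-fold (1 of 268) and 1.28% of all tested.

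Among growth factors and their receptors 6 of 26 genes rose and 1 fell (3 rose without untreated replicate 1 or 2), and those that rose included 4 ligands of the EGF receptor family. Btc, betacellulin, was at 1.09, 0.778 and 1.54 CPM and 9.57, 7.69 and 24.05 CPM (log2 3.595, SE 0.41, edgeR adjusted p = 0.000315). Areg, amphiregulin, was at 0 in all untreated livers and 1.33, 0.902 and 7.01 CPM in treated ones (at least 19.1-fold, edgeR adjusted p = 0.00662). Nrg1, a ligand of ERBB3, was at 0, 0.0546 and 0.255 CPM and 1.37, 3.56 and 15.3 CPM (at least 41.8-fold, edgeR adjusted p = 0.025, lost without untreated replicate 1 or 2 or treated replicate 3), and Nrg4 at 2.94, 2.92 and 8.21 CPM and 9.04, 17.5 and 52.3 CPM (log2 2.48, SE 0.65, edgeR adjusted p = 0.0375, lost without untreated replicate 1 or 2 or treated replicate 3 or FBXL5ΔDC untreated 1 or 3 or treated 1, 2 or 3). Erbb3, the receptor gene named above for Nrg1, fell, from 138, 90.6 and 96.6 CPM to 56.6, 25.97 and 19.9 CPM (log2 −1.66, SE 0.33, edgeR adjusted p = 0.0103). Egfr itself was at 288, 253 and 286 CPM and 385, 536 and 382 CPM and Met, the receptor of hepatocyte growth factor, at 73.2, 74.1 and 64.1 CPM and 81.1, 71.5 and 107 CPM, and neither passed (edgeR adjusted p = 0.0578 and 0.3). Cell cycle genes were not moved as a group (3 of 38 higher, 3 lower), and Mki67, the marker of dividing cells, was at 0.530, 0.669 and 1.17 CPM and 0.503, 0.606 and 0.617 CPM (edgeR adjusted p = 0.79).

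Of 23 p53 target genes 7 rose and 1 fell (2, 3 and 2 rose without untreated replicate 1, 2 or 3). Mdm2, which marks p53 for degradation, was at 29.9, 33.6 and 27.2 CPM and 59.4, 47.95 and 102 CPM (log2 1.21, SE 0.27, edgeR adjusted p = 0.0156, lost without untreated replicate 1 or 3). Gadd45a, which slows the cell cycle under stress, was counted in the stress kinase list and not in this one. It was at 0.955, 0.655 and 1.16 CPM and 38.7, 34.4 and 66.6 CPM (log2 5.66, SE 0.58, edgeR adjusted p = 0.000315). Cdkn1a, the cell cycle inhibitor p21, was at 14.4, 55.1 and 43.2 CPM and 29.2, 37.5 and 168 CPM, with untreated replicate 1 below the other untreated livers (edgeR adjusted p = 0.422). Of 35 regulators of cell death 4 rose and 3 fell (0 to 3 falls and 1 to 5 rises with any 1 library left out). Among 36 autophagy and lysosome genes 4 rose and 6 fell (2 and 3 fell without untreated replicate 2 or 3). Sqstm1, the cargo receptor p62, was at 595, 607 and 565 CPM and 2141, 1774 and 3374 CPM (log2 2.04, SE 0.22, edgeR adjusted p = 0.00025), the treated livers apart from the untreated. Of 35 interferon-stimulated genes 4 rose (1 to 8 with any 1 library left out), with Oasl1 at 4.69, 5.94 and 4.03 CPM and 21.6, 15.5 and 12.9 CPM (log2 1.77, SE 0.25, edgeR adjusted p = 0.00114). Of 25 hypoxia-inducible genes 6 rose and none fell (3 without untreated replicate 2 or 3).

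Of 30 chemokines and cytokines 6 rose and none fell (median log2 1.67, or 0.94 with groups under the floor set to the floor), and 1, 1 and 2 rose without untreated replicate 1, 2 or 3 and 3 without treated replicate 3. Csf1, the growth factor of macrophages, was at 3.899, 3.47 and 3.52 CPM and 15.1, 10.3 and 13.8 CPM (log2 1.85, SE 0.18, edgeR adjusted p = 0.000128). The neutrophil attractant gene Cxcl1 was at 0.212, 1.34 and 1.01 CPM and 1.78, 1.77 and 28.7 CPM, high in treated replicate 3 alone, and was not called (edgeR adjusted p = 0.0745). Ccl2, which draws monocytes, was at 0.252, 0.109 and 0.389 CPM and 0.606, 0.902 and 1.099 CPM (edgeR adjusted p = 0.239). Of 22 NF-κB feedback genes 5 rose and 1 fell (1, 1 and 3 rose without untreated replicate 2, untreated replicate 3 or treated replicate 3), and the one that fell was its inhibitor gene Nfkbia, at 39.7, 43.99 and 50.2 CPM and 33.1, 25.9 and 35.8 CPM (log2 −0.498, SE 0.14, edgeR adjusted p = 0.0439, lost without untreated replicate 1, 2 or 3 or treated replicate 1 or 2 or FBXL5ΔDC untreated 1, 2 or 3 or treated 1 or 2). Of 22 genes of the IL-6 family pathway 8 rose and 1 fell (1, 0 and 2 rose without untreated replicate 1, 2 or 3), among the rises Socs3, its feedback inhibitor, at 5.53, 5.896 and 6.86 CPM and 10.6, 10.1 and 33.6 CPM (log2 1.57, SE 0.41, edgeR adjusted p = 0.0337, lost without untreated replicate 1, 2 or 3 or FBXL5ΔDC untreated 2 or treated 3). Acute phase proteins did not follow as a group (4 of 28 higher, 1 to 4 with any 1 library left out), and Saa1, serum amyloid A, spread widely in both groups, at 14.5, 20.4 and 119 CPM and 20.9, 38.4 and 98.3 CPM (edgeR adjusted p = 0.991).

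Marker genes of other cells changed in few cases. Of 14 Kupffer cell markers 1 rose, Marco, a scavenger receptor of macrophages, at 3.37, 2.96 and 4.69 CPM and 13.2, 8.95 and 7.43 CPM (log2 1.43, SE 0.40, edgeR adjusted p = 0.0385, lost without untreated replicate 1, 2 or 3 or treated replicate 1 or FBXL5ΔDC untreated 3). Clec4f, the marker most particular to these cells, was at 35.4, 47.6 and 36.5 CPM and 40.6, 51.5 and 47.1 CPM (edgeR adjusted p = 0.484), and the 14 markers summed to 275 to 360 CPM in untreated and 385 to 478 CPM in treated livers. Of 14 neutrophil markers 8 could be tested and 1 rose, S100a9, at 0.133, 0.109 and 0.0671 CPM and 0.877, 0.705 and 0.843 CPM (at least 5.01-fold, edgeR adjusted p = 0.00676), while Ly6g, Mpo, Elane, Camp, Ngp and Ltf had too few counts to test. The neutrophil markers summed to 1.34 to 1.79 CPM in untreated and 3.55 to 4.80 CPM in treated livers. None of 14 dendritic cell, 13 lymphocyte, 16 endothelial or 14 stellate cell markers was called, and 1 of 12 monocyte markers was (Plac8, at 1.27, 1.08 and 2.15 CPM and 2.66, 3.19 and 7.39 CPM, log2 1.55, SE 0.39, edgeR adjusted p = 0.0249, lost without untreated replicate 1 or 2 or treated replicate 3). Red blood cell genes rose in 1 of 8 tested (0 to 3 with any 1 library left out). The 10 listed summed to 341, 314 and 275 CPM in untreated and 492, 538 and 489 CPM in treated livers. Bile duct markers rose in 1 of 9 tested (0 to 2 with any 1 library left out). The 10 listed summed to 29.5, 27.7 and 35.7 CPM and 37.1, 34.0 and 89.3 CPM, high in treated replicate 3 alone. The part of these cell types in the rises described here was not tested.

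Genes that fell belonged to several branches of hepatocyte metabolism. In whole liver, fewer cells of a type and less RNA per cell cannot be told apart. Of the 10 hepatocyte markers 1 fell, Cyp3a11 (lost without untreated replicate 1), and their sum was 86666 to 95319 CPM in untreated and 78049 to 126701 CPM in treated livers.

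Fatty acid oxidation under PPARα, the nuclear receptor of fasting, held the largest share of falls among the 57 lists. Of 35 tested genes 21 fell and none rose (median log2 −0.59), 25 had all treated livers below all untreated ones, and 21 also fell without treated replicate 3 (median −0.69). Without untreated replicate 1, 2 or 3 the number was 21, 12 and 11. The median shift was −0.68, −0.65 and −0.56 in treated replicates 1, 2 and 3. Acsl1, which activates fatty acids as CoA esters, was at 1599, 1785 and 2006 CPM and 704, 686 and 573 CPM (log2 −1.46, SE 0.15, edgeR adjusted p = 0.000217). Acot1, an acyl-CoA thioesterase, was at 348, 388 and 502 CPM and 94.7, 93.97 and 141 CPM (log2 −1.91, SE 0.21, edgeR adjusted p = 0.000228). Acot3 was at 82.1, 49.02 and 61.1 CPM and 15.9, 16.7 and 10.04 CPM (log2 −2.17, SE 0.33, edgeR adjusted p = 0.00232). No treated liver overlapped an untreated one in these 3 genes. Cpt1a, the gate of fatty acids into mitochondria, was at 447, 539 and 778 CPM and 269, 377 and 259 CPM (log2 −0.96, SE 0.21, edgeR adjusted p = 0.0136, lost without untreated replicate 3). Ppara itself was at 88.4, 111 and 108 CPM and 62.9, 50.5 and 31.04 CPM (log2 −1.09, SE 0.27, edgeR adjusted p = 0.0253, lost without untreated replicate 2 or 3 or treated replicate 3).

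Other members of the list were not called. Pdk4, which blocks glucose oxidation and is a textbook target of PPARα, was at 32.03, 26.5 and 37.3 CPM and 29.98, 18.02 and 112 CPM, high in replicate 3 alone (edgeR adjusted p = 0.607). Angptl4, an inhibitor of lipoprotein lipase, was at 183, 261 and 266 CPM and 128, 89.7 and 297 CPM, with the same outlying replicate (log2 −0.47, edgeR adjusted p = 0.467). Without treated replicate 3 it was called as a fall, by −1.12 (edgeR adjusted p = 0.0026). The microsomal omega-hydroxylase Cyp4a10 was at 2915, 4144 and 3933 CPM and 3211, 1914 and 3374 CPM (edgeR adjusted p = 0.323). Depp1, a gene of fasted and insulin-starved cells, was among the 12 steepest falls that met the naming rule, at 31.1, 35.8 and 38.2 CPM and 8.28, 4.62 and 5.57 CPM (log2 −2.51, SE 0.28, edgeR adjusted p = 0.000292). G0s2, which inhibits the lipase ATGL, was at 153, 168 and 265 CPM and 22.9, 28.5 and 59.3 CPM (log2 −2.403, SE 0.41, edgeR adjusted p = 0.00501). Plin5, a lipid droplet coat protein, was at 88.98, 134 and 149 CPM and 49.01, 51.02 and 55.6 CPM (log2 −1.26, SE 0.20, edgeR adjusted p = 0.00249). Plin2, the major coat protein, was at 506, 638 and 956 CPM and 508, 378 and 2516 CPM, with replicate 3 alone high, and was not called (edgeR adjusted p = 0.536).

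Pericentral genes, expressed by hepatocytes beside the central vein under Wnt signals, fell in 12 of 28 tested members and 2 rose (median log2 −1.10), and 20 had all treated livers below all untreated ones. With any 1 library left out, 9 to 16 fell, and 11 without treated replicate 3. The rises were Slc1a4 (log2 3.94, SE 0.82, edgeR adjusted p = 0.0135, lost without untreated replicate 1, 2 or 3) and the junction gene Cldn14 (log2 2.35, SE 0.59, edgeR adjusted p = 0.0325, lost without untreated replicate 1, 2 or 3 or FBXL5ΔDC untreated 1, 2 or 3 or treated 1). Glul, glutamine synthetase of the innermost cell layer, was at 578, 576 and 514 CPM and 143, 52.7 and 102 CPM (log2 −2.49, SE 0.27, edgeR adjusted p = 0.000257). Slc1a2, a glutamate importer of the same cells, was at 139, 153 and 134 CPM and 12.3, 11.1 and 1.099 CPM (log2 −4.12, SE 0.72, edgeR adjusted p = 0.0073), lowest in treated replicate 3. Aldh3a2, a fatty aldehyde dehydrogenase, was at 569.7, 772 and 786 CPM and 278, 179 and 154 CPM (log2 −1.803, SE 0.23, edgeR adjusted p = 0.000778). Cyp2c37 was at 407, 407 and 326 CPM and 130.4, 53.3 and 94.4 CPM (log2 −2.04, SE 0.28, edgeR adjusted p = 0.00111). Treated and untreated livers did not overlap for these 4 genes. Among Wnt targets that were not called, Axin2 was at 12.98, 9.29 and 12.3 CPM and 8.59, 6.89 and 1.38 CPM (edgeR adjusted p = 0.342). Tbx3, a repressor of these cells, was at 43.7, 37.03 and 38.8 CPM and 34.2, 15.8 and 2.81 CPM (edgeR adjusted p = 0.266), with replicate 3 far the lowest in both. Of 28 periportal genes, at the other end of the lobule, 3 rose and 1 fell (median log2 0.21, with 1 rise without untreated replicate 2 or 3), and Cyp2f2 was at 806, 759.8 and 814 CPM and 906, 1039.7 and 1115 CPM (edgeR adjusted p = 0.0835).

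Of 22 cytochromes that activate acetaminophen and their regulators, 6 fell and none rose (3 fell without untreated replicate 1). Cyp2e1, the main activating enzyme, was at 6972, 9672 and 8019.9 CPM and 4527, 2513 and 3493 CPM (log2 −1.23, SE 0.25, edgeR adjusted p = 0.00878). Cyp1a2 was at 300.5, 310.5 and 267 CPM and 256, 202 and 135 CPM, all treated livers below all untreated ones, without passing (edgeR adjusted p = 0.135). Nr1i3, the nuclear receptor CAR, was at 251, 282 and 219.9 CPM and 141, 63.1 and 59.95 CPM (log2 −1.51, SE 0.29, edgeR adjusted p = 0.00714). Among 34 conjugating enzymes and pumps 3 rose and 4 fell. The rises were Gsta1, a glutathione transferase, at 3.28, 3.99 and 4.75 CPM and 88.4, 55.2 and 189 CPM (log2 4.79, SE 0.61, edgeR adjusted p = 0.00144), Ugdh, which makes the sugar donor, at 221, 175 and 134 CPM and 509, 386 and 449.9 CPM (log2 1.34, SE 0.20, edgeR adjusted p = 0.00175), and the efflux pump Abcc4, at 3.24, 3.62 and 2.42 CPM and 8.102, 12.4 and 4.41 CPM (log2 1.43, SE 0.40, edgeR adjusted p = 0.039, lost without untreated replicate 1, 2 or 3 or treated replicate 1 or 2 or FBXL5ΔDC untreated 2 or treated 1, 2 or 3). The falls included Papss2, which makes the sulfate donor, at 119.9, 144 and 138 CPM and 88.4, 68.8 and 48.6 CPM (log2 −0.97, SE 0.18, edgeR adjusted p = 0.00672), and the glucuronosyltransferase Ugt1a6b, which shares its last exons with other Ugt1a genes, so that the counts of single members are uncertain.

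Lipid and sterol synthesis fell in part. Of 22 fatty acid synthesis genes 8 fell and 2 rose, and of 27 cholesterol genes 5 fell and none rose (without untreated replicate 2 or 3, 4 and 4 of the former and 2 and 1 of the latter fell). Srebf1, the gene of the factor SREBP1, was one of the rises, at 32.1, 22.6 and 23.7 CPM and 49.6, 53.99 and 67.4 CPM (log2 1.12, SE 0.18, edgeR adjusted p = 0.00261), whereas Insig2, which holds SREBPs back, fell from 336, 395 and 489 CPM to 159.8, 114 and 186 CPM (log2 −1.41, SE 0.21, edgeR adjusted p = 0.00202). Fasn, the fatty acid synthase, was at 72.3, 86.9 and 117 CPM and 94.8, 71.9 and 63.2 CPM (edgeR adjusted p = 0.558). Hmgcs1, an early sterol enzyme, was at 94.4, 104 and 109 CPM and 35.4, 31.9 and 39.8 CPM (log2 −1.52, SE 0.12, edgeR adjusted p = 4.20e-05). In the bile acid list of 30 genes, 7 were lower and 1 was higher (4 fell without untreated replicate 2). Abcb4, which exports phospholipid into bile, was at 533, 599 and 628 CPM and 267, 221 and 317 CPM (log2 −1.13, SE 0.15, edgeR adjusted p = 0.000955). Cyp8b1 was at 530.2, 519.5 and 964 CPM and 248, 221 and 127 CPM (log2 −1.76, SE 0.28, edgeR adjusted p = 0.00303). Cyp7a1, the rate-limiting enzyme, varied too much to judge, at 92.3, 21.1 and 36.9 CPM and 106, 81.98 and 2.302 CPM (edgeR adjusted p = 0.903).

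Of 30 genes of glucose output, glycogen and glycolysis control 2 rose and 3 fell (0 to 3 rises and 2 to 6 falls with any 1 library left out). The rises were Gbe1, the glycogen branching enzyme (log2 0.81, SE 0.18, edgeR adjusted p = 0.0152, lost without untreated replicate 2 or 3), and Pgm2, a phosphoglucomutase (log2 2.06, SE 0.54, edgeR adjusted p = 0.0341, lost without untreated replicate 1 or 2 or treated replicate 3 or FBXL5ΔDC untreated 2 or treated 1, 2 or 3). G6pc, which releases glucose, fell from 354, 254 and 221 CPM to 95.03, 139.6 and 103 CPM (log2 −1.296, SE 0.24, edgeR adjusted p = 0.00611). Pck1, which starts glucose synthesis, was at 3595, 4419 and 3603 CPM and 2039, 2615 and 1002 CPM (log2 −1.04, SE 0.29, edgeR adjusted p = 0.0425, lost without untreated replicate 1, 2 or 3 or treated replicate 1 or FBXL5ΔDC untreated 1, 2 or 3 or treated 1). Of 39 urea cycle and amino acid breakdown genes 7 fell and none rose (2 fell without untreated replicate 2 or 3), including Kynu of tryptophan breakdown at 169.7, 171 and 176 CPM and 112, 122 and 96.1 CPM (log2 −0.64, SE 0.11, edgeR adjusted p = 0.00479). Cps1, which opens the urea cycle, was at 3974, 4878 and 5392 CPM and 4867, 4532 and 3901 CPM (edgeR adjusted p = 0.763). Igfbp1, a binding protein of insulin-like growth factors, depended on 1 liver. It was at 92.4, 151 and 153 CPM and 51.2, 41.03 and 555 CPM, a log2 change of 0.71 (edgeR adjusted p = 0.686) with all livers and of −1.52 without treated replicate 3 (edgeR adjusted p = 0.00636). The insulin receptor gene Insr fell, from 149, 137 and 127 CPM to 91.3, 95.9 and 77.03 CPM (log2 −0.65, SE 0.12, edgeR adjusted p = 0.00578), and its adaptor Grb10 rose from 1.53, 1.43 and 1.56 CPM to 6.45, 10.03 and 6.38 CPM (log2 2.34, SE 0.29, edgeR adjusted p = 0.000566).

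None of 30 plasma protein genes and none of 15 mitochondrially encoded genes was called. For respiratory chain subunits made in the nucleus 1 of 44 fell and none rose, although 14 of the 44 had all treated livers below all untreated ones (median log2 −0.20). Clpx, the unfoldase of a mitochondrial protease, was the steeper of 2 falls among 31 mitochondrial stress genes, of which 5 rose, at 269, 263 and 216 CPM and 102, 77.2 and 117 CPM (log2 −1.33, SE 0.20, edgeR adjusted p = 0.00168). Hepatocyte transcription factors were called in few cases (1 of 32 higher, 3 lower, the latter 1 without untreated replicate 2 or 3), with Hnf4a at 771, 889 and 825 CPM and 603, 612 and 994 CPM (edgeR adjusted p = 0.697). Of 34 iron and heme genes 6 rose and 3 fell (3 rose and none fell without untreated replicate 2), among them Tfrc, the transferrin receptor, at 22.5, 21.1 and 25.5 CPM and 71.5, 46.2 and 35.4 CPM (log2 1.15, SE 0.22, edgeR adjusted p = 0.00773). Tmprss6, a protease that restrains hepcidin, was at 479.5, 481 and 474 CPM and 297, 389 and 347 CPM (log2 −0.47, SE 0.12, edgeR adjusted p = 0.024, lost without untreated replicate 1, 2 or 3 or treated replicate 1). Clock genes were raised in 5 of 24 (2 to 6 with any 1 library left out) and lowered in 1, and Bhlhe41, a repressor of the clock, was at 0.398, 0.314 and 1.68 CPM and 6.08, 3.55 and 6.98 CPM (log2 2.79, SE 0.56, edgeR adjusted p = 0.00884). The hour at which livers were taken is not given in the sources used here.

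Steep falls were also seen outside the lists. Nxpe2, a gene of little-known function, was at 8.85, 9.404 and 9.99 CPM and 1.81, 0.655 and 0.963 CPM (log2 −3.04, SE 0.58, edgeR adjusted p = 0.00773). Rad51b, a recombination repair gene, was at 7.21, 10.5 and 7.400 CPM and 0.710, 0.593 and 2.21 CPM (log2 −2.84, SE 0.53, edgeR adjusted p = 0.00626). Serpinb1a, an inhibitor of neutrophil proteases, was at 5.45, 10.1 and 18.3 CPM and 2.13, 1.32 and 2.59 CPM (log2 −2.49, SE 0.42, edgeR adjusted p = 0.00363). Adrb3, the beta-3 adrenergic receptor, was at 3.36, 8.23 and 7.78 CPM and 1.06, 1.85 and 1.11 CPM (log2 −2.26, SE 0.45, edgeR adjusted p = 0.00884). Genes that rose were protein-coding in 94.8% and genes that fell in 92.3%, against 79.7% of tested genes, and their median spans were 23.3 and 28.9 kb against 23.5 kb.

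The response was next set against that of FBXL5ΔDC livers, in which Cre acts in cells that express CD11c. The test of the difference between the responses called 51 genes (0.29% of those tested). With any 1 library other than treated control replicate 3 left out it called 1 to 22, so most of these calls were lost in each of those fits. Without treated control replicate 3, each of the 51 was still called. In 45 of them the control change lay above that of FBXL5ΔDC livers, and in 24 of the 51 the only called change was a fall in FBXL5ΔDC livers. In another 13 both genotypes fell, as for Cyp2e1, at 8221 CPM on average in untreated and 3511 in treated control livers and at 9097 and 843 CPM in FBXL5ΔDC livers (log2 difference between responses 2.21, edgeR adjusted p = 0.0327). Of the 1118 genes that rose in control livers, 860 (76.9%) also rose in FBXL5ΔDC livers, where they were 32.6% of 2638 rises. Of the 739 that fell, 554 (75%) also fell there, 20.9% of 2648 falls.

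Stress genes were among those whose control response lay above. Ddit3, at 6.804 and 4.598 CPM in untreated and treated FBXL5ΔDC livers, differed in its response by 4.36 log2 units (edgeR adjusted p = 0.0114). Jun, at 30.2 and 52.7 CPM there, differed by 3.17 log2 units (edgeR adjusted p = 0.0465), and the HSP40 gene Dnajb1, at 43.6 and 19.6 CPM there and 26.1, 57.5 and 50.8 and 879.7, 592 and 191 CPM in control livers, by 4.78 (edgeR adjusted p = 0.0483). The ubiquitin gene Ubb, in the chaperone list, differed by 1.35 (edgeR adjusted p = 0.0293), although it shares sequence with a pseudogene. Of the 28 pericentral genes 7 differed by this test, against 0.29% of all tested genes. So did 3 of the 34 chaperone genes. Of the 22 cytochromes that activate acetaminophen and their regulators 3 differed, among them Cyp2e1 and Cyp1a2, which are also in the pericentral list. Of the 39 nucleolar genes, 31 redox genes and 35 fatty acid oxidation genes none differed, and of the 34 ATF4 genes Ddit3 alone did. With 1 library left out at a time, the difference passed in 8 of the 12 fits for Ddit3, in 5 for Ubb, in 3 for Cyp2e1, in 2 for Jun and in 1 for Dnajb1. A miss of the threshold does not show that the responses were alike, and without treated control replicate 3 the test called 2533 genes.

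**Figure D5:**
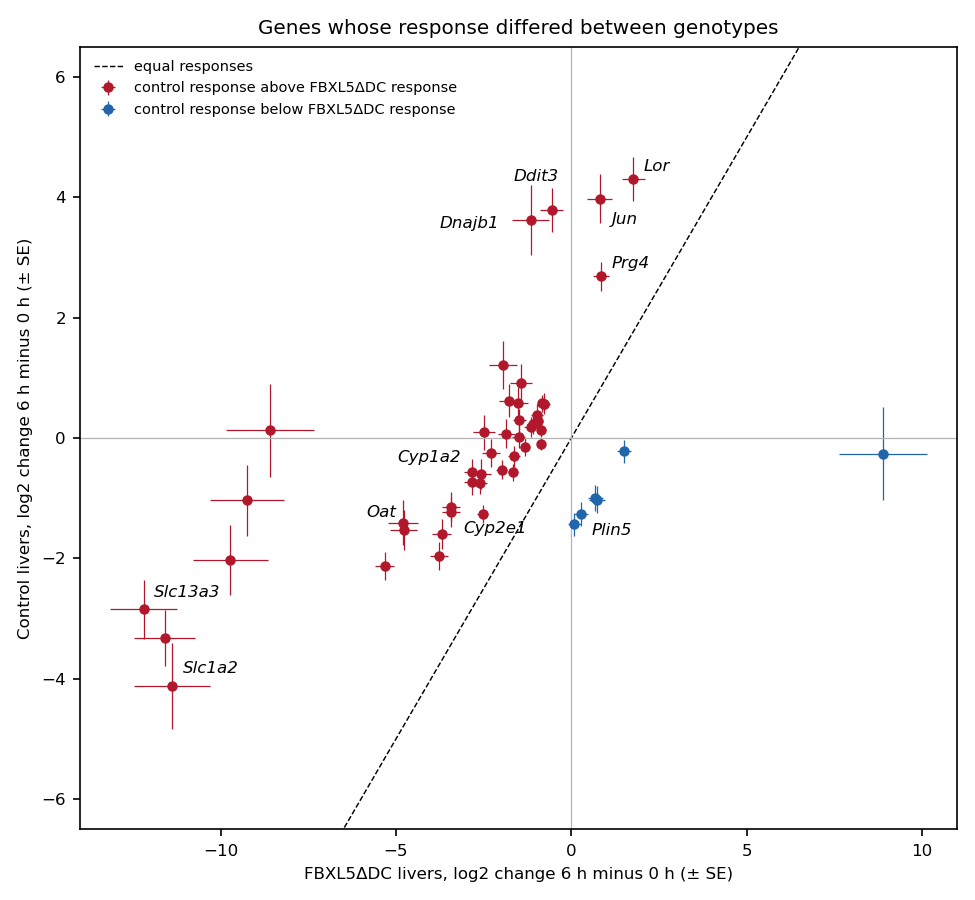
Each of the 51 points is a gene whose response differed between genotypes, placed by its log2 change (6 h minus 0 h, with SE bars) in FBXL5ΔDC livers (x axis) and control livers (y axis), with the dashed line marking equal responses. Most points lie above the line, with Ddit3, Dnajb1 and Jun raised in control livers and Slc1a2 at −4.12 in control livers against a deeper fall, to 0.0608 CPM, in FBXL5ΔDC livers.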

How the data were processed

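Total RNA from whole liver was sequenced for 12 libraries in 4 groups of 3. The deposited table holds whole-number estimated counts per gene and library made by the authors. Trim Galore 0.6.6, HISAT2 2.2.1 and the build mm10 are listed in the submitters' processing notes. The counting program, its strand setting and the annotation are not given in the sources used here. Low values pile up at multiples of 4, so counting error at low levels may be larger than for single reads. Of 55401 genes, 26840 were at 0 throughout and 17585 passed filterByExpr. edgeR 4.0.16 (R 4.3.3) fitted all 12 libraries with TMM factors and 1 coefficient per group (8 residual degrees of freedom), tested control 6 h minus 0 h and the difference between genotypes by a robust quasi-likelihood F test, and adjusted p-values by Benjamini-Hochberg over all tested genes (threshold 0.05). CPM was computed from counts and TMM-scaled library sizes. A group mean under 12 counts per library was set to that floor for folds (intervals and floors cover counting error only).

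Per-library shifts used log2 CPM with a prior count of 2. Lists are described by counts of called members, with no set test. Named genes were Fbxl5, Itgax, the 12 largest rises and 12 largest falls among called genes with at least 5 CPM in the higher group and no overlap between groups, the anchor genes of each list, and up to 2 further members per list and direction with the lowest adjusted p. Aars, Abcc4, Angptl4, Cyp4a10, Dkc1, Dnaja4, Dnajb1, Fbl, Gar1, Heatr1, Hspa1a, Hspa8, Lor, Mthfd2, Nop2, Nop56, Nop58, Npm1, Nrg4, Phgdh, Psph, Sars, Sdf2l1, Tars, Tbx3, Tsr1, Tubb6, Ubb, Ugt1a6b and members named only as called or not called were added after their values were seen. The members and lists were chosen with earlier results of these data known. Gene positions came from GENCODE vM21 (GRCm38) and promoter sequences from RefSeq (GRCm38.p6), matched by symbol for 11827 of the tested genes (15083 promoters). Motifs searched but not described above are given for promoters of at least 2-fold rises, at least 2-fold falls and all tested genes. They were the metal response element (37.0%, 30.6% and 34.1%), the TATA box (9.51%, 8.21% and 8.28%) and the HNF1 site (0.176%, 0% and 0.0663%). In simulated counts for 16465 genes the fit recovered 42% of 2-fold and 84% of 4-fold changes, with 2 false calls among 128. The changes were placed only in genes above a minimum expected count, and each gene had the same spread in all libraries. No library was made to stand apart as treated control replicate 3 does, so these shares may not hold for the real counts.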

Additional observations from a re-analysis of the deposited data

Results flagged for a closer look

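For 10 of the genes described, the change after acetaminophen differed between control and FBXL5ΔDC livers by the edgeR test of the difference (adjusted over all tested genes), with 0.29% of tested genes called. Plin5, the droplet coat gene, fell in control livers and was at 88.6 and 108 CPM in untreated and treated FBXL5ΔDC livers, where it was not called (log2 0.29, edgeR adjusted p = 0.308). The log2 difference between the responses was −1.54 (edgeR adjusted p = 0.0483). Hexim1, an inhibitor of transcription elongation, was at 56.1, 56.1 and 46.9 CPM in untreated and 36.7, 37.3 and 21.2 CPM in treated livers of control mice. In FBXL5ΔDC mice it went from 57.7 to 9.51 CPM, a difference of 1.86 (edgeR adjusted p = 0.0293).

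The cytochrome genes Cyp2e1 and Cyp1a2 differed by 2.21 (edgeR adjusted p = 0.0327) and 2.26 (edgeR adjusted p = 0.0293), with Cyp1a2 at 414 and 58.6 CPM in untreated and treated FBXL5ΔDC livers. The stress genes Jun and Ddit3 differed by 3.17 (edgeR adjusted p = 0.0465) and 4.36 (edgeR adjusted p = 0.0114). The HSP40 gene Dnajb1 differed by 4.78 (edgeR adjusted p = 0.0483), the ubiquitin gene Ubb by 1.35 (edgeR adjusted p = 0.0293) and Lor by 2.54 (edgeR adjusted p = 0.0483). Slc1a2 differed by 7.26 (edgeR adjusted p = 0.0493), but its mean in treated FBXL5ΔDC livers, 0.0608 CPM, was under the floor of 12 counts per library, so this fitted size depends on the prior count.

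The number of genes whose responses differed ranged from 1 to 22 with any 1 library left out other than treated control replicate 3, and was 2533 without that library. Over the 12 fits with 1 library left out, Ddit3 passed in 8, Ubb in 5, Plin5, Cyp2e1 and Cyp1a2 in 3, Jun and Hexim1 in 2, and Dnajb1, Lor and Slc1a2 in 1, the fit without treated control replicate 3.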

How the results depend on the processing

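DESeq2 called 1687 genes higher and 1196 lower, a fit to the 6 control libraries alone 235 and 167, and the demand for a change of at least 2-fold 610 and 264. With 1 library left out, the numbers ranged from 449 to 1361 higher and from 314 to 843 lower. For the difference between genotypes the numbers were 689 by DESeq2, 2273 by limma voom with sample weights, 20 with upper quartile factors and 1 to 2533 with 1 library left out. The causes were not tested. Voom gave treated control replicate 3 a weight of 0.186, against 1.01 and 1.02 for the other treated control livers. Of the 174 called genes among 250 named, 97 kept their call with any 1 library left out. Among the named genes, Igfbp1 alone reversed its direction with a call in either fit. It was at 0.71 and not called with all libraries, and at −1.52 without treated control replicate 3 (edgeR adjusted p = 0.00636). Its range over single libraries left out reached up to 1.20. Changes of sign with no call were not counted. Plin2 and Pdk4, for example, were at 0.70 and 0.74 with all libraries and at −0.66 and −0.41 without treated control replicate 3. Replicate numbers showed no sign of pairing the samples: deviations of same-numbered untreated and treated control livers correlated across genes at −0.000917, −0.0266 and −0.0254. These values cannot tell whether samples shared a litter or cage, because deviations from the mean of 3 libraries are tied to each other. With the replicate number as a block, 854 genes were higher, 634 lower and 28 differed between genotypes. With 3 libraries a group, the simulated counts show that 2-fold changes are often missed.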
